A study of Mus musculus with 31 samples.

Results

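The retina of Rorb-/-;CrxpNrl mice was followed from postnatal day 14 (P14) to postnatal day 28 (P28). These mice lack Rorb and carry CrxpNrl, a transgene that places the photoreceptor factor Nrl under the promoter of Crx, so that Nrl is supplied to photoreceptors in a retina without Rorb. The members are the 8 arrays that the labels give to this genotype, 4 at P14 and 4 at P28, of 31 arrays in all. Both retinas of 1 mouse made up each sample, so the arrays of a group are separate mice. The other 23 arrays hold the same 2 ages in +/+ retina (4 and 4), in Rorb-/- retina without the transgene (4 and 4) and in +/+;CrxpNrl retina, which has the transgene and both copies of Rorb (4 at P14 and 3 at P28). The labels give no sex, strain, time of collection or description of the deleted part of Rorb, and the number of transgenic lines is not given in the sources used here. Each ageing comparison is between mice of different age, not of 1 mouse over time, and every difference below is P28 minus P14 on the log2 scale, so that 1 unit is a 2-fold difference.

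Rorb encodes an orphan nuclear receptor that acts in photoreceptor precursors and in inner retinal neurons. It lies above Nrl, the leucine zipper factor that commits a precursor to the rod fate, and without either factor precursors take on a cone-like fate. Crx drives genes of both rods and cones, and its promoter is active in photoreceptor precursors, which makes it a way to restore Nrl where Rorb is missing. Between these ages the mouse retina completes outer segments and synapses and loses the last transcripts of growing neurons and vessels.

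Rorb and Nrl were examined first. Values are listed in the order of replicates 1 to 4 here and throughout. Rorb read 9.31, 9.63, 9.04 and 8.48 at P14 and 8.15, 8.58, 8.27 and 8.27 at P28, with an overlap between replicate 4 at P14 and replicate 2 at P28, and it fell by 0.80 ± 0.19 (SE, n = 4 and 4, adjusted p = 0.00186). The mean of +/+ retina was 10.97 at P14, and the mean of Rorb-/- retina was 9.82. Signal from the Rorb probe set was thus lower but not absent without the gene, and since the deleted part is not given, the probe set is no test of the genotype. Nrl read 11.89, 11.34, 11.29 and 12.28 at P14 and 11.63, 11.86, 9.39 and 10.44 at P28. Its difference, -0.87 ± 0.40 (adjusted p = 0.11), did not pass the test, and replicates 3 and 4 at P28 lay below all other samples of the genotype. At P14 the mean of Nrl was 13.32 in +/+ and 9.68 in Rorb-/- retina, and the rescued retinas lay between the 2.

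Over all genes the P28 samples split 2 against 2. The 8 arrays had medians between 5.858 and 5.906, lower quartiles between 3.98 and 4.04 and maxima between 14.17 and 14.26, so a gene near the lower quartile cannot show a large fall. Pairs of P14 arrays correlated at 0.9906 to 0.9953, pairs of P28 arrays at 0.9847 to 0.9952 and pairs across ages at 0.9725 to 0.9894. On the first principal component of the 8 arrays, which held 53.9% of the variance, P14 samples lay between -30.99 and -23.22 and P28 samples at 8.84, 19.95, 39.83 and 34.11. On this component replicates 3 and 4 at P28 were thus farthest from P14. On the second component (15%) P28 replicates 1 and 2 lay at 26.1 and 17.66 and replicates 3 and 4 at -17.05 and -10.39. P14 samples lay there between -12.25 and 6.72. Weights that limma estimates per array were lowest of the 31 for P28 replicates 1 and 2 (0.332 and 0.442). Those of replicates 3 and 4 were 0.928 and 1.42. Neither pair can be named the unusual one from these values. Where a named gene lost its call without replicates 3 and 4, its value without them is given beside it. Defining retinal markers were present in every sample: Rcvrn, a calcium sensor of photoreceptors, read 10.84 or more and Rlbp1, the retinaldehyde carrier of Müller glia, 11.40 or more. Because the tissue is bulk, fewer cells of a type and less RNA per cell cannot be told apart.

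The rescued retina changed broadly between the 2 ages. Of 18193 genes measured, 357 rose and 183 fell by at least 2-fold at an adjusted p under 0.05 (limma), which is 1.96% and 1.01% of genes. With no requirement on size, 2476 genes rose (13.6%) and 2781 fell (15.3%), and these shares are the background for the gene lists below, whose members are counted at any fold. In 10.8% of genes all P28 samples were above all P14 samples, and in 12% all were below. The median of all genes was -0.02. Without replicates 3 and 4 at P28, 272 genes rose and 110 fell by at least 2-fold.

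Among the genes with the largest rises, interferon-stimulated genes were frequent: Ifit1, Usp18, Rtp4, Ifit3, Gbp2, Ifi27, Gbp2b and Ifitm3 were among the first 15. The others were Etnppl, a phospholyase of ethanolamine phosphate found in astroglia, Rskr, a kinase related to ribosomal S6 kinase, Gna14, a G protein alpha subunit, Rasgrf1, a Ras exchange factor, Spag5, a spindle protein, Osmr, a receptor subunit for oncostatin M, and Stc1, a secreted glycoprotein. Rasgrf1 read 8.90, 7.82, 8.23 and 8.34 at P14 and 10.69, 11.01, 11.27 and 11.22 at P28, a rise of 2.72 ± 0.17 (6.61-fold, adjusted p = 9.06e-12). Etnppl rose by 3.03 ± 0.37 in the rescued retina and by 2.95, 2.91 and 3.01 in +/+, Rorb-/- and +/+;CrxpNrl retina, so the measured rise was close in all 4 genotypes. Gna14, in contrast, rose by 2.77 ± 0.22 here and measured 0.56 in +/+ and 0.36 in +/+;CrxpNrl retina, with a difference that passed the test against both (adjusted p = 3e-05 and 2.1e-05). Rskr rose by 2.80 ± 0.34 and Spag5 by 2.72 ± 0.24, and at P14 their rescued samples, from 5.02 to 7.22 and from 4.98 to 6.65, were all below the +/+ means of 8.32 and 7.46.

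The 15 largest falls came from genes of different kinds. Aplnr, the apelin receptor of sprouting endothelium, read 6.18, 7.03, 6.87 and 6.18 at P14 and 3.18, 3.42, 3.17 and 3.77 at P28, a measured difference of -3.18 ± 0.25 (adjusted p = 2.43e-10) and -1.81 as the mean of its probe sets. All 4 values at P28 lay below the arrays' lower quartile, where signal was not shown to be above background, so the size of this fall and its rank are uncertain. It measured -4.71 in +/+ retina. Fabp7, a fatty acid carrier of radial glia, read 8.23, 8.81, 8.33 and 8.31 at P14 and 7.03, 6.18, 3.46 and 4.64 at P28, with replicates 3 and 4 lowest, and its difference of -3.09 ± 0.47 became -1.81 without them. Myocd, a cofactor of serum response factor, read 7.88, 8.56, 7.82 and 7.14 at P14 and 5.67, 5.35, 4.09 and 4.47 at P28. That difference of -2.96 ± 0.26 departed from ageing in all 3 other genotypes, where Myocd measured -0.48, -0.62 and -0.07. Otop3, a proton channel, behaved likewise: it fell by 2.71 ± 0.31 here and measured -0.16 in +/+ and -0.19 in Rorb-/- retina. Crxos, transcribed from the strand opposite to Crx, fell by 2.39 ± 0.26, Wdr66, a protein of motile cilia, fell by 2.41 ± 0.28, and Insm1, a zinc finger factor of newborn neurons, fell by 2.34 ± 0.31. These 3 measured -1.54, -1.53 and -1.52 without replicates 3 and 4.

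**Figure D1:**
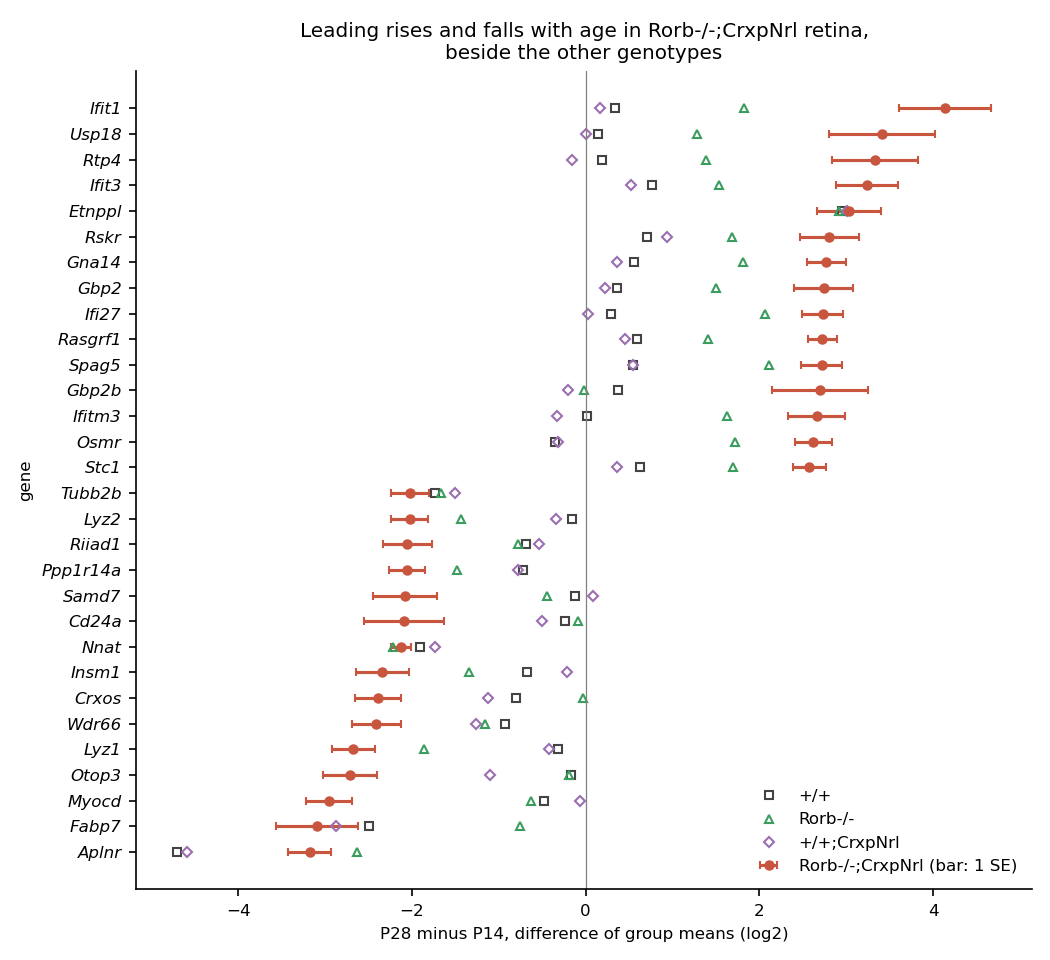
Each row is a gene, the 15 with the largest rise and the 15 with the largest fall in the rescued retina by the naming rule, and the axis is the P28 minus P14 difference in log2 units for each of the 4 genotypes, with bars of 1 SE for the rescued retina. Etnppl lies near 3 in every genotype, whereas Ifit1 lies at 4.14 in Rorb-/-;CrxpNrl retina and at 0.34 in +/+ retina.

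Interferon-stimulated genes had the largest share of members that rose of any list. Type I and type II interferons bind their receptors and switch these genes on through STAT and IRF factors, and the products restrict viruses, bind foreign RNA or present antigen. Of 28 measured members, 24 rose, none fell and the median difference was 1.49. In 24 members the 4 P28 samples lay above the 4 P14 samples. These are the members that rose except Bst2, whose groups overlapped, and also Oasl1, which did not pass the test. By comparison 13.6% of all genes rose. Without replicates 3 and 4 at P28 20 of the 28 rose and none fell.

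Promoters are shown for 3 of the leading members because they hold the letters of the element that the interferon-activated factor complex ISGF3 binds. Each is the RefSeq promoter of assembly GRCm38.p6, from 250 bases before to 50 bases after the start of the gene, with matches to GAAA, NN and GAAA in a row (N being any base), or to TTTC, NN and TTTC as the same letters read on the other strand, in capitals.
Ifit1, chr19:34640639-34640938, plus strand: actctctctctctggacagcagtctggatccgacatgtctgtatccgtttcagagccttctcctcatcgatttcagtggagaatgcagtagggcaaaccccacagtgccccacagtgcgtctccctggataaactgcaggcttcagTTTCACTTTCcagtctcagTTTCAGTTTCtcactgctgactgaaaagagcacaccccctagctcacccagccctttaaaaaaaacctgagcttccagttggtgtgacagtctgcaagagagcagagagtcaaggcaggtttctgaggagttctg
Ifit3, chr19:34583279-34583578, plus strand: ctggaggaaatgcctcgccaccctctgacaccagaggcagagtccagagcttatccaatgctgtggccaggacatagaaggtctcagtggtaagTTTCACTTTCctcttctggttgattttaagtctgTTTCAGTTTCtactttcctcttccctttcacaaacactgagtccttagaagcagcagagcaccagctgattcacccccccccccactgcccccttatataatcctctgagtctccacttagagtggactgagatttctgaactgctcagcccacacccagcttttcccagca
Gbp2, chr3:142620413-142620712, plus strand: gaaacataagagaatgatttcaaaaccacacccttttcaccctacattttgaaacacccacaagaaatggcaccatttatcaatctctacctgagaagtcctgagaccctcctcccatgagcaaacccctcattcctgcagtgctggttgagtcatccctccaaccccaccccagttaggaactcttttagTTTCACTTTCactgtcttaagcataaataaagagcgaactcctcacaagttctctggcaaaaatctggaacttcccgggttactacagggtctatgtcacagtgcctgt
Ifit1 and Ifit3 hold 2 matches each, at -104 and -85 and at -156 and -122 from the start, and Gbp2 holds 1 at -59. A match was found in 12 of the 21 list members that have a promoter entry (57.1%), against 3.99% of all 27025 genes with one. A match describes letters in this window and is no measurement of binding.

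Ifit1, which binds foreign RNA that lacks a host cap, read 4.27, 5.59, 4.24 and 3.60 at P14 and 7.98, 8.46, 8.98 and 8.83 at P28. The groups were more than 2 units apart, and the rise was 4.14 ± 0.53 (17.6-fold, adjusted p = 7.81e-07). At P14 replicate 4 lay below the arrays' lower quartile and replicates 1 and 3 lay just above it, so the size of this rise is uncertain. Usp18, the protease that removes ISG15 and dampens the type I receptor, read 4.02, 6.68, 4.61 and 4.40 at P14 and 7.61, 8.26, 8.65 and 8.85 at P28, a rise of 3.41 ± 0.61 (10.7-fold, adjusted p = 8.63e-05). Replicate 2 at P14 was highest of its age for both genes. Rtp4, an interferon-induced chaperone of receptors, read 4.59, 6.50, 4.81 and 4.44 at P14 and 7.85, 8.24, 8.62 and 8.96 at P28, again with replicate 2 highest at P14, and rose by 3.33 ± 0.50 (10.1-fold). Ifit3, a partner of Ifit1, read 6.71, 6.74, 6.51 and 6.42 at P14 and 9.48, 9.35, 10.41 and 10.09 at P28. Its P14 samples lay close together, and it rose by 3.24 ± 0.36 (9.44-fold, adjusted p = 8.8e-08). Gbp2, a guanylate-binding GTPase of the interferon gamma response, rose by 2.74 ± 0.34, and Ifi27, a small interferon-induced membrane protein, by 2.73 ± 0.24. Ifitm3, which blocks entry of enveloped viruses, read 8.26, 9.80, 8.45 and 8.08 at P14 and 10.82, 11.22, 11.53 and 11.65 at P28 and rose by 2.66 ± 0.33 (adjusted p = 4.64e-07).

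Components that carry the interferon signal also rose. Irf7, the factor that amplifies type I interferon, rose by 1.54 ± 0.26, and Irf9, the DNA-binding subunit of ISGF3, read 6.30, 7.42, 6.42 and 6.38 at P14 and 7.91, 8.30, 8.97 and 9.23 at P28, a rise of 1.97 ± 0.32 with no overlap. Oasl2, of the 2′-5′ oligoadenylate synthetase family, rose by 2.25 ± 0.38. Bst2, which tethers budding virus, read 5.45, 7.38, 6.04 and 5.48 at P14 and 7.04, 6.50, 8.25 and 8.29 at P28, so that its groups overlapped. Its rise of 1.43 ± 0.39 (adjusted p = 0.00534) was 0.68 (adjusted p = 0.29) without replicates 3 and 4.

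The mean of the 28 members was between 5.6 and 6.36 in the 4 P14 samples and between 7.19 and 7.86 in the 4 P28 samples. In +/+ retina the same mean was 5.41 at P14 and 5.53 at P28, and in +/+;CrxpNrl retina 5.37 and 5.45. Rorb-/- retina without the transgene read 6.63 at P14, with samples from 5.55 to 7.50, and 7.34 at P28. Ageing of the rescued retina exceeded that of +/+ retina in 19 of 28 members and that of +/+;CrxpNrl retina in 20, against 8.85% and 8.58% of all genes. Against Rorb-/- retina no member differed at an adjusted p under 0.05. Of all 18193 genes 148 differed upward (0.813%) and 122 downward, so the lack of calls does not set the list apart. The median of its members' differences from Rorb-/- ageing was 0.76. In Rorb-/- retina itself 8 members rose with age, where 6.15% of all genes rose, and the median difference with age was 0.75. The median difference was 0.11 in +/+ and 0.05 in +/+;CrxpNrl retina.

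**Figure D2:**
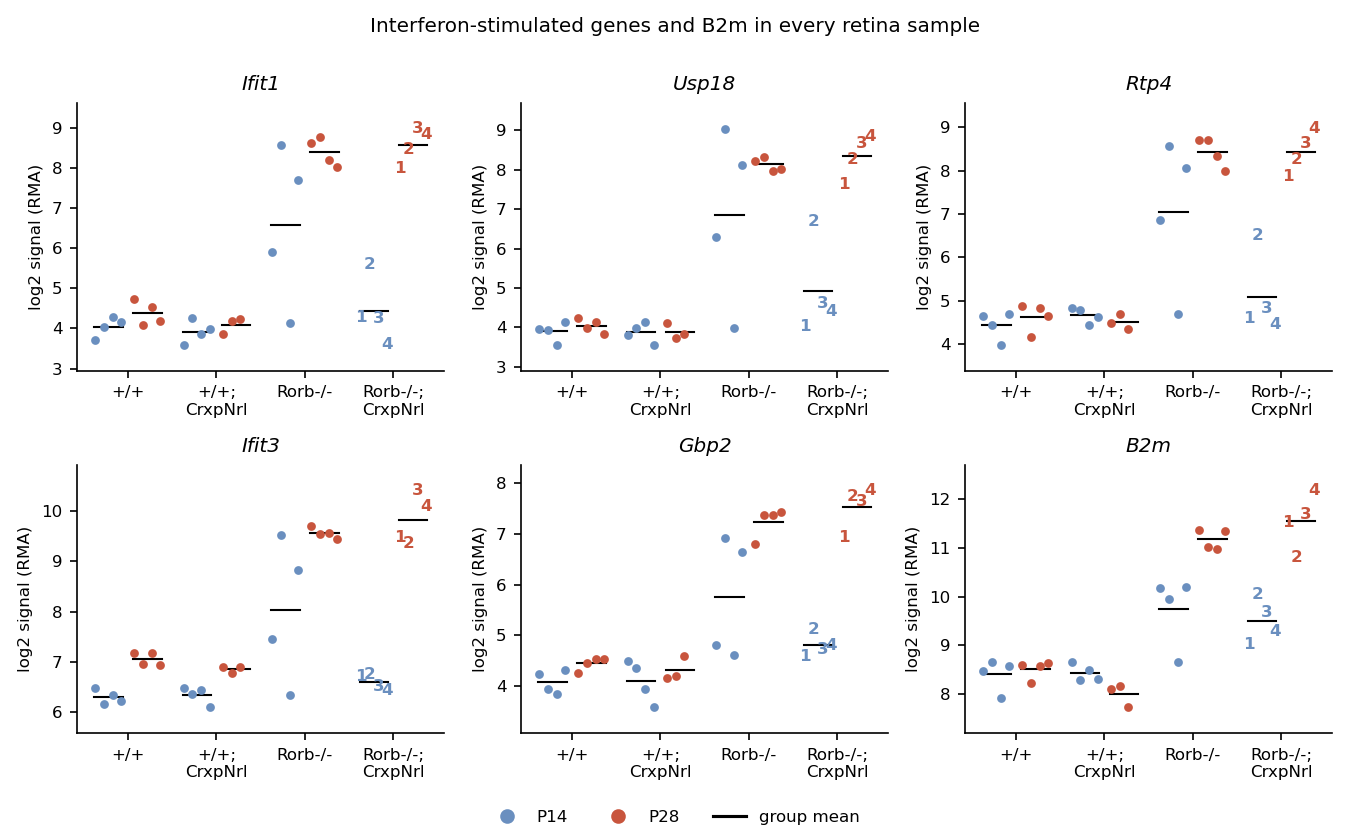
Log2 signal of 5 interferon-stimulated genes and of B2m in each retina sample, by genotype, with P14 in blue, P28 in red and group means as black lines; the rescued samples are drawn as their replicate numbers. In every panel all 4 rescued P28 samples lie above the 4 rescued P14 samples, while the +/+ groups stay near each other, for Ifit1 at means of 4.05 and 4.39.

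Genes of antigen presentation rose in part. Of 15 measured members 6 rose and none fell, with a median of 0.14. B2m, the invariant chain of class I molecules, read 9.02, 10.05, 9.67 and 9.29 at P14 and 11.51, 10.81, 11.69 and 12.17 at P28, a rise of 2.04 ± 0.27 (adjusted p = 1.23e-06) without overlap. Nlrc5, the transactivator of class I genes, rose by 1.68 ± 0.20 from P14 values that were all below the arrays' lower quartile, Tap2, a peptide transporter, by 1.08 ± 0.12, and Psmb8, a subunit of the immunoproteasome, by 1.01 ± 0.18. H2-D1, a class I heavy chain, read 8.17, 8.52, 9.14 and 9.17 at P14 and 5.6, 6.0, 10.19 and 5.95 at P28. It went both ways at P28, with replicate 3 highest and the other 3 lowest of the 8 samples, and its difference of -1.82 ± 0.83 (adjusted p = 0.108) did not pass the test. Its 9 probe sets did not move alike, since their mean gave 0.31, and class I genes are near-identical to each other, so that probes may be shared. Without replicate 3 at P28 3 members of the list fell, and without probe sets that may match several genes 3 rose in place of 6.

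Photoreceptor genes fell, and most of these calls rested on replicates 3 and 4 at P28. Of 18 measured genes of rod phototransduction none rose and 7 fell (15.3% of all genes fell), with a median of -0.80, and of 20 genes of outer segment structure and the cilium none rose and 10 fell, with a median of -1.0. Without replicates 3 and 4, 2 rod genes rose and 1 fell, and 2 outer segment genes rose and 3 fell. Leaving out replicate 1 alone, 13 rod genes fell, and with array weights 13 rod genes and 16 outer segment genes fell. A fit on the 8 arrays alone called 1 rod gene and 3 outer segment genes lower. Mean levels show the split: the rod list read 11.14, 10.50, 10.42 and 10.89 at P14 and 11.07, 10.62, 8.71 and 9.47 at P28, and the outer segment list 10.14, 9.59, 9.60 and 9.86 at P14 and 9.86, 9.52, 7.95 and 8.40 at P28. Replicates 1 and 2 at P28 thus lay within or next to the P14 range, and replicates 3 and 4 lay below it.

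Promoters of 2 members that fell are shown, since many rod genes carry the TAATCC letters bound by Crx and Otx2. The windows and assembly are those of the interferon genes, with TAATCC or its reverse complement GGATTA in capitals.
Samd7, chr3:30746043-30746342, plus strand: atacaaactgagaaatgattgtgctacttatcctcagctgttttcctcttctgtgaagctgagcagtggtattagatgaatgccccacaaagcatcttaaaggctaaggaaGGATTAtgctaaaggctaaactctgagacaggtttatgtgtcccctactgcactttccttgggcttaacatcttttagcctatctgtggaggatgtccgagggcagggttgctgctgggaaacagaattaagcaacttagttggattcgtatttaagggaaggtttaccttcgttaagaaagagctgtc
Gngt1, chr6:3993758-3994057, plus strand: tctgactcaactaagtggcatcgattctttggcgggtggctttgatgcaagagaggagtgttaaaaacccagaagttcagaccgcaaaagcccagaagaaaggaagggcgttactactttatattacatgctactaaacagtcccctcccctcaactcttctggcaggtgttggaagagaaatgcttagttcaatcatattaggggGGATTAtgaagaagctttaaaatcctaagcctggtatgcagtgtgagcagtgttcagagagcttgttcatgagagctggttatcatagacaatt
Samd7 holds the match at -139 and Gngt1 at -44. The letters occur in 6 of 12 rod genes with a promoter entry (50%), in 6 of 18 outer segment genes (33.3%) and in 8.14% of all genes.

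Samd7, a sterile alpha motif protein that works with the Polycomb machinery to silence non-rod genes in rods, had the largest fall in the rod list. It read 10.02, 9.67, 9.29 and 9.37 at P14 and 8.80, 8.35, 5.62 and 7.27 at P28, and fell by 2.08 ± 0.37 (4.22-fold, adjusted p = 7.82e-05), or -1.02 (adjusted p = 0.0015) without replicates 3 and 4. All P28 samples were below all P14 samples. Gngt1, the gamma subunit of rod transducin, read 12.57, 12.43, 12.19 and 12.37 at P14 and 12.54, 11.63, 10.07 and 10.72 at P28. Replicate 1 at P28 was as high as the P14 samples, and the difference of -1.15 ± 0.26 (adjusted p = 0.000978) became -0.31 (adjusted p = 0.1) without replicates 3 and 4. Rcvrn read 13.47, 13.29, 13.18 and 13.41 at P14 and 13.21, 13.03, 10.84 and 11.71 at P28, a difference of -1.14 ± 0.27 that was -0.22 (adjusted p = 0.066) without them. Susd3, a sushi domain protein, fell by 1.30 ± 0.29, or -0.35 (adjusted p = 0.094) without them. The same pattern held for Cngb1, the beta subunit of the rod cyclic nucleotide channel, which fell by 1.27 ± 0.33, or -0.38 (adjusted p = 0.4) without those samples. Pde6g, the inhibitory subunit of rod phosphodiesterase, fell by 1.08 ± 0.28, or -0.10 (adjusted p = 0.58). Gnat1, the alpha subunit of rod transducin, read 13.33, 11.80, 12.36 and 13.28 at P14 and 13.66, 13.48, 11.63 and 12.38 at P28 and differed by 0.10 ± 0.51 (adjusted p = 0.922), and the sign of this value turned when single samples were left out.

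Outer segment genes showed the same order of samples. Cdhr1, the cadherin at the base of nascent discs, read 12.99, 12.82, 12.84 and 12.83 at P14 and 12.62, 12.37, 10.32 and 10.90 at P28. The groups did not overlap, and the difference of -1.32 ± 0.27 (adjusted p = 0.000409) became -0.38 (adjusted p = 0.0071) without replicates 3 and 4. Rp1, a microtubule protein of the axoneme, read 11.55, 11.51, 11.24 and 11.54 at P14 and 11.52, 11.13, 8.44 and 9.45 at P28. Replicate 1 at P28 was as high as P14 samples, and the difference of -1.33 ± 0.35 was -0.14 (adjusted p = 0.51) without the 2 low samples. Cerkl, a ceramide kinase-like protein, measured -1.71 ± 0.68 (adjusted p = 0.06). Rp1l1, a relative of Rp1, fell by 1.76 ± 0.34 and, without them, fell by 0.59 (adjusted p = 5.8e-05). Prom1, which shapes disc membranes, fell by 1.30 ± 0.31, and Tulp1, which acts in transport to the outer segment, fell by 1.27 ± 0.28, with values of -0.21 and -0.31 (adjusted p = 0.1 and 0.058) without them. In +/+ retina Cdhr1, Rp1, Rp1l1, Prom1 and Tulp1 measured between -0.28 and 0.14. In a fit on the rescued arrays alone none of these genes passed the test (adjusted p = 0.063, 0.14, 0.051, 0.11 and 0.077).

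Cone genes moved in both directions. Of 15 measured members 3 rose and 6 fell, with a median of -0.62, and without replicates 3 and 4 the counts were 3 and 4. Otop3, given above, had the largest fall of the list. Cngb3, the beta subunit of the cone cyclic nucleotide channel, read 9.70, 9.97, 9.44 and 9.53 at P14 and 9.03, 8.75, 7.76 and 7.80 at P28 and fell by 1.32 ± 0.22 (adjusted p = 4.04e-05). Kcne2, a potassium channel subunit, fell by 1.09 ± 0.10 with close replicates, from 8.41 to 8.85 at P14 and from 7.48 to 7.80 at P28. Pde6c, the catalytic subunit of cone phosphodiesterase, read 7.78, 8.48, 8.07 and 7.46 at P14 and 9.36, 9.27, 8.99 and 8.17 at P28 and rose by 1.0 ± 0.27 (adjusted p = 0.0052). Gnat2, the alpha subunit of cone transducin, rose by 0.88 ± 0.19, from 8.69 to 9.41 at P14 to 9.76 to 10.02 at P28. Cckbr, a cholecystokinin receptor, fell by 1.17 ± 0.24, or -0.55 (adjusted p = 0.088) without replicates 3 and 4. Cngb3 measured -0.77 without them and still passed the test. Slc24a2, the cone exchanger of sodium, calcium and potassium, rose by 1.01 ± 0.23.

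The 2 cone opsins stayed low. Opn1mw, the medium-wave opsin, read 5.14, 4.95, 3.92 and 4.27 at P14 and 5.28, 4.99, 5.00 and 5.17 at P28, near the lower part of the arrays' range, with a difference of 0.54 ± 0.25 (adjusted p = 0.117). Its P14 mean was 11.08 in +/+ and 10.90 in Rorb-/- retina, but 5.10 in +/+;CrxpNrl retina. Opn1sw, the short-wave opsin, read 7.91, 8.59, 8.19 and 7.0 at P14 and 8.06, 7.47, 6.42 and 5.74 at P28, a difference of -1.0 ± 0.56 (adjusted p = 0.199), against P14 means of 11.62 in +/+, 13.45 in Rorb-/- and 5.97 in +/+;CrxpNrl retina. Both opsins were lower in every rescued sample than the +/+ mean of either age.

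Photoreceptor transcription factors fell more often than they rose, 9 against 1 of 17 measured members, with a median of -0.39. Leaving out replicate 4 at P28 alone brought the number that fell to 5, as did leaving out replicates 3 and 4. Crx read 12.03, 12.02, 11.84 and 11.92 at P14 and 11.52, 11.58, 10.28 and 10.54 at P28, a difference of -0.97 ± 0.16 (adjusted p = 3.62e-05) that was -0.40 (adjusted p = 3.5e-05) without the 2 low samples. Prdm1, which holds back the bipolar fate in precursors, read 8.12, 8.70, 8.46 and 8.40 at P14 and 7.48, 7.40, 6.02 and 5.97 at P28 and fell by 1.71 ± 0.24 (adjusted p = 3.54e-06). For both genes the P28 samples lay below all P14 samples, with replicates 3 and 4 lowest. Pias3, a SUMO ligase that acts with rod factors, fell by 1.07 ± 0.18, and Casz1, a zinc finger factor, fell by 0.91 ± 0.29. Smaller falls were measured for Rorb, for Neurod1, a survival factor of photoreceptors (-0.64 ± 0.15), for Thrb, the receptor for thyroid hormone in cones (-0.50 ± 0.19), for Otx2 (-0.30 ± 0.09) and for Rax (-0.25 ± 0.09). Without replicates 3 and 4 Casz1 measured -0.04, Neurod1 -0.25, Thrb -0.36, Otx2 -0.10 and Rax -0.23, and none of these 5 passed the test (adjusted p = 0.93, 0.19, 0.31, 0.5 and 0.19). Prdm1 (-0.98) and Pias3 (-0.54) still passed it. Thrb and Rax also lost their call when any of several single samples was left out, with adjusted p of up to 0.17 and 0.12.

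Mef2c, an activator of photoreceptor genes, was the member that rose. It read 6.56, 6.41, 6.01 and 5.47 at P14 and 8.18, 8.04, 5.93 and 6.73 at P28, with replicate 3 within the P14 range, and rose by 1.11 ± 0.33 (adjusted p = 0.0113), or by 2.00 without replicates 3 and 4. In +/+ retina it rose by 2.16, from a mean of 7.92 to 10.08. Esrrb, an orphan receptor of rods, measured -0.39 ± 0.40 (adjusted p = 0.536), Mef2d -0.21 ± 0.11, Rxrg -0.07 ± 0.13, Tbx2 -0.33 ± 0.13, Onecut1 -0.12 ± 0.25 and Rora 0.02 ± 0.09, none of which passed the test. Esrrb rose by 1.84 in Rorb-/- retina.

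Ribbon synapse genes went in both directions, 5 up and 6 down of 20, with a median of -0.08. Rims3, a scaffold of the active zone, rose by 1.25 ± 0.15, and Bsn, the scaffold protein Bassoon, by 0.59 ± 0.14 (0.077, adjusted p = 0.57, as the mean of its probe sets). Elfn1, an adhesion protein of rod synapses, fell by 1.0 ± 0.18 (-0.52 without replicates 3 and 4), and Cabp4, a calcium sensor of the photoreceptor channel, read 8.75, 8.28, 8.17 and 8.63 at P14 and 8.93, 7.99, 6.33 and 7.10 at P28. The difference of Cabp4, -0.87 ± 0.28 (adjusted p = 0.0198), was 0.00 without replicates 3 and 4, and without them 1 member of the list fell. Leaving out replicate 4 at P14, replicate 3 at P28 or replicate 4 at P28 left 3 that fell.

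**Figure D3:**
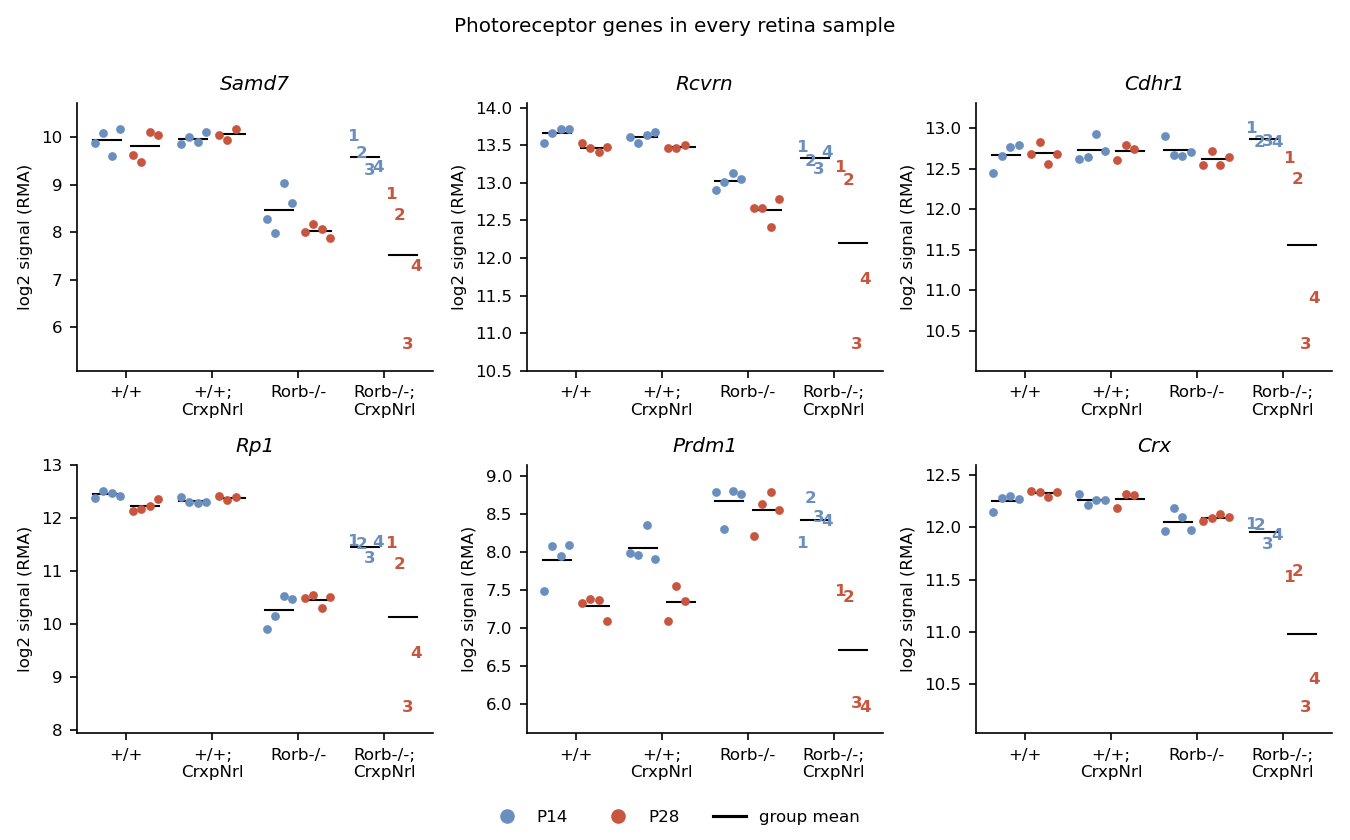
Log2 signal of 6 photoreceptor genes in each retina sample, by genotype, with P14 in blue, P28 in red and group means as black lines; the rescued samples are drawn as their replicate numbers. In each panel rescued P28 replicates 3 and 4 lie lowest of the 8, for Rcvrn at 10.84 and 11.71 against 13.03 or more in the other 6.

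Amacrine markers rose in part. Of 23 measured amacrine genes 9 rose and none fell (median 0.28), and without replicates 3 and 4 8 rose. Vip, a neuropeptide, read 6.78, 5.17, 5.45 and 6.19 at P14 and 8.37, 9.40, 7.82 and 8.24 at P28 and rose by 2.56 ± 0.31 (adjusted p = 3.56e-07). Tac1, the precursor of substance P, read 8.45, 8.39, 8.54 and 8.48 at P14 and 9.89, 10.05, 10.57 and 10.57 at P28. Replicates were close at each age, and the rise of 1.80 ± 0.12 (adjusted p = 2.18e-11) exceeded that in all 3 other genotypes. Gad2, a GABA-synthesizing enzyme, rose by 1.16 ± 0.10, Npy by 1.06 ± 0.17 and Sst by 0.90 ± 0.22. Gad1, the other enzyme of GABA synthesis, read 5.56, 5.42, 5.31 and 5.94 at P14 and 5.31, 6.53, 7.6 and 7.45 at P28, rose by 1.17 ± 0.29 (adjusted p = 0.0027) and measured 0.37 (adjusted p = 0.34) without replicates 3 and 4. Its means in +/+ retina were 11.34 and 11.47 at the 2 ages, and in Rorb-/- retina 5.07 and 6.07, so that every rescued sample lay more than 3 units under the +/+ means.

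Ganglion cell markers rose in 11 and fell in 4 of 19, with a median of 0.53, while 4 rose and 4 fell without replicates 3 and 4. Pvalb, a calcium buffer, read 6.56, 5.24, 5.54 and 5.99 at P14 and 7.59, 7.77, 8.74 and 8.31 at P28 and rose by 2.27 ± 0.21 (adjusted p = 4.35e-09). The nicotinic receptor subunits Chrnb3 and Chrna6 rose by 1.11 ± 0.26 and 1.07 ± 0.19. The light neurofilament Nefl rose by 0.97 ± 0.17 (0.58 without replicates 3 and 4) and the surface protein Thy1 by 0.96 ± 0.22, while Chrnb3 (0.82, adjusted p = 0.067) and Thy1 (0.48, adjusted p = 0.13) no longer passed the test without replicates 3 and 4. Calb1, which marks horizontal and some amacrine cells, read 8.26, 7.38, 7.62 and 7.93 at P14 and 8.85, 9.08, 9.68 and 9.52 at P28, a rise of 1.48 ± 0.15. It was 1 of 4 members of the 9 measured horizontal cell genes that rose, and none fell. Bipolar genes split, with 6 up and 7 down of 22 (median 0.23) and 3 down without replicates 3 and 4. Gng13, the G protein gamma subunit of ON bipolar cells, rose by 1.45 ± 0.14, Lrtm1, a leucine-rich repeat protein of their synapse, by 1.13 ± 0.26, Cabp5 by 0.91 ± 0.12 and Trpm1, the ON bipolar channel that melanocytes also express, by 0.89 ± 0.20 (0.36, adjusted p = 0.061, as the mean of its probe sets). Prkca, the protein kinase C of rod bipolar cells, read 11.43, 11.50, 11.53 and 11.42 at P14 and 10.94, 10.92, 10.25 and 10.30 at P28 and fell by 0.87 ± 0.11 (adjusted p = 7.52e-07), or -0.54 without replicates 3 and 4.

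Müller glia, which span the retina and buffer its ions and transmitters, showed 12 rises and 2 falls in 24 genes, with a median of 0.36, and 9 and 2 without replicates 3 and 4. Car14, a membrane carbonic anhydrase, read 8.47, 6.24, 6.95 and 7.92 at P14 and 9.13, 9.03, 9.75 and 9.05 at P28 and rose by 1.84 ± 0.26 (adjusted p = 2.65e-06). Aqp4, the water channel of glial end feet, rose by 1.25 ± 0.11 and Clu, a secreted chaperone, by 1.18 ± 0.12, and both rises exceeded ageing in +/+ and +/+;CrxpNrl retina but did not differ at an adjusted p under 0.05 from Rorb-/- retina (adjusted p = 0.47 and 0.34). Crym, a thyroid hormone-binding protein, read 9.97, 10.44, 10.22 and 10.50 at P14 and 8.67, 9.18, 7.64 and 8.82 at P28 and fell by 1.70 ± 0.28, and it also fell in the other 3 genotypes, at -1.25, -1.73 and -1.18. Glul, glutamine synthetase, rose by 0.35 ± 0.10, while Rlbp1 differed by -0.07 ± 0.08 (adjusted p = 0.625).

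Genes of gliosis and photoreceptor stress rose in 11 and fell in 2 of 25, with a median of 0.38, and the counts were 11 and 0 without replicates 3 and 4. Osmr read 4.43, 4.06, 4.46 and 4.87 at P14 and 6.97, 7.72, 6.27 and 7.34 at P28, a rise of 2.62 ± 0.22 (6.16-fold, adjusted p = 6.44e-10) with well separated groups (1.15 as the mean of its 3 probe sets), and measured -0.35 in +/+ retina. Cebpb, a factor downstream of cytokine receptors, read 6.83, 6.49, 6.71 and 6.65 at P14 and 8.08, 8.85, 8.58 and 9.34 at P28, a rise of 2.04 ± 0.21, and the related Cebpd rose by 1.35 ± 0.16. Cd44, a hyaluronan receptor of reactive Müller glia, rose by 1.07 ± 0.16. Gfap, the filament protein of reactive glia, read 7.57, 7.72, 7.40 and 7.89 at P14 and 8.58, 9.17, 7.79 and 9.16 at P28, where replicate 3 fell within the P14 range, and rose by 1.03 ± 0.23 (adjusted p = 0.00103). Egr1, an early response factor, fell by 1.51 ± 0.44 (adjusted p = 0.0102), or -1.30 (adjusted p = 0.1) without replicates 3 and 4, and Serpina3n, an acute phase protease inhibitor, differed by 1.05 ± 0.47 (adjusted p = 0.103).

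Microglia and macrophage genes fell, 13 of 25 with 1 rise and a median of -0.36, and the medians in +/+, Rorb-/- and +/+;CrxpNrl retina were -0.32, -0.33 and -0.34. Lyz2, lysozyme of macrophages, read 7.25, 8.17, 7.64 and 7.94 at P14 and 6.28, 5.79, 5.29 and 5.53 at P28 and fell by 2.03 ± 0.22 (adjusted p = 5.21e-08). Its near-identical paralog Lyz1 fell by 2.67 ± 0.25, but a probe set chosen without shared probes gave 0.06, so that the fall of Lyz1 is not separable from that of Lyz2. Mpeg1, a pore protein of macrophages, fell by 1.13 ± 0.20, and Tyrobp, an adaptor of microglial receptors, fell by 0.96 ± 0.14. Cd68, of the lysosome, fell by 0.87 ± 0.19, or -0.56 (adjusted p = 0.067) without replicates 3 and 4, and Cx3cr1, the fractalkine receptor, fell by 0.78 ± 0.16. Csf1r, the growth factor receptor of the lineage, fell by 0.38 ± 0.11, and Aif1 differed by -0.36 ± 0.17 (adjusted p = 0.124). Gpnmb, which phagocytes and pigment cells express, was the member that rose, by 1.03 ± 0.20.

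Of 13 complement genes 3 rose and 6 fell. Serping1, the C1 inhibitor, which interferons induce, read 7.21, 7.44, 7.31 and 7.32 at P14 and 9.17, 9.67, 8.92 and 9.43 at P28. Replicates were close, and the rise of 1.97 ± 0.18 (adjusted p = 3.5e-09) exceeded ageing in all 3 other genotypes, including Rorb-/- retina at 0.87 (adjusted p = 0.029 for the difference). Cd59a, which blocks the terminal complex, and C1ra, a protease of the C1 complex, rose by 1.06 ± 0.19 and 1.03 ± 0.22. C1qb, a C1q chain made by microglia, fell by 0.76 ± 0.21. Interferon-stimulated genes rose in the same samples in which 13 of 25 microglia genes fell. The medians of microglia genes were alike in every genotype, and which cells made the interferon-stimulated transcripts was not tested.

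Genes of immature neurons fell in 22 and rose in 2 of 32, with a median of -0.56. In +/+, Rorb-/- and +/+;CrxpNrl retina 20, 22 and 16 members fell, against 7.94%, 8.8% and 7.2% of all genes, with medians of -0.46, -0.52 and -0.41. Nnat, neuronatin, read 11.70, 12.16, 12.09 and 11.77 at P14 and 9.85, 9.50, 9.93 and 9.93 at P28 and fell by 2.13 ± 0.11 (adjusted p = 6.84e-13). In the other genotypes it measured -1.91, -2.22 and -1.73. Cd24a, a surface glycoprotein of young neurons, read 9.43, 10.58, 10.28 and 11.15 at P14 and 8.03, 8.06, 8.30 and 8.68 at P28, a difference of -2.09 ± 0.46, whereas it measured -0.24 in +/+ retina, and the difference between these passed the test (adjusted p = 0.049). Tubb2b, a tubulin of growing axons, fell by 2.02 ± 0.22, Dcx, which stabilizes microtubules in migrating neurons, fell by 1.70 ± 0.18, and Sox4, a factor of neuronal differentiation, fell by 1.65 ± 0.14.

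Cell cycle genes fell in 8 and rose in 1 of 25, with differences of -1.59 ± 0.20 for Cenpe, a kinetochore motor, and -0.90 ± 0.18 for Hmgb2, a chromatin protein (0.12 without probe sets that may match several genes). The number that fell lay between 4 and 9 when single samples were left out, with 4 without replicate 2 at P14, replicate 2 at P28 or replicate 3 at P28 and 5 without replicate 4 at P14. Extracellular matrix genes fell in 13 and rose in 3 of 31, and 6 fell without replicates 3 and 4. Nid1, a basement membrane linker, fell by 1.68 ± 0.47, and Fbn2, a fibrillin of developing tissue, fell by 1.40 ± 0.28, or -0.77 (adjusted p = 0.057) without them. Dcn, decorin, was opposite: it read 6.64, 5.57, 6.60 and 6.59 at P14 and 7.37, 7.57, 9.07 and 8.69 at P28, a rise of 1.83 ± 0.30 (adjusted p = 3.14e-05) that was 1.12 without replicates 3 and 4. Of 27 genes of vessels and pericytes 5 rose and 6 fell, whereas 12 fell in +/+ retina. Cldn5, the tight junction protein of endothelium, fell by 0.91 ± 0.17 here and fell by 1.76 in +/+ retina (adjusted p = 0.018 for the difference). Esam, an endothelial adhesion protein, rose by 0.93 ± 0.12 and Flt1, a receptor for vascular endothelial growth factor, by 0.83 ± 0.12, and Pecam1 differed by -0.09 ± 0.15 (adjusted p = 0.732). Myelin genes, whose product the mouse retina itself lacks, rose in 1 and fell in 2 of 13, and red blood cell genes rose in 1 and fell in 1 of 7. With 13.6% of all genes rising and 15.3% falling, counts this small do not set either list apart.

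**Figure D4:**
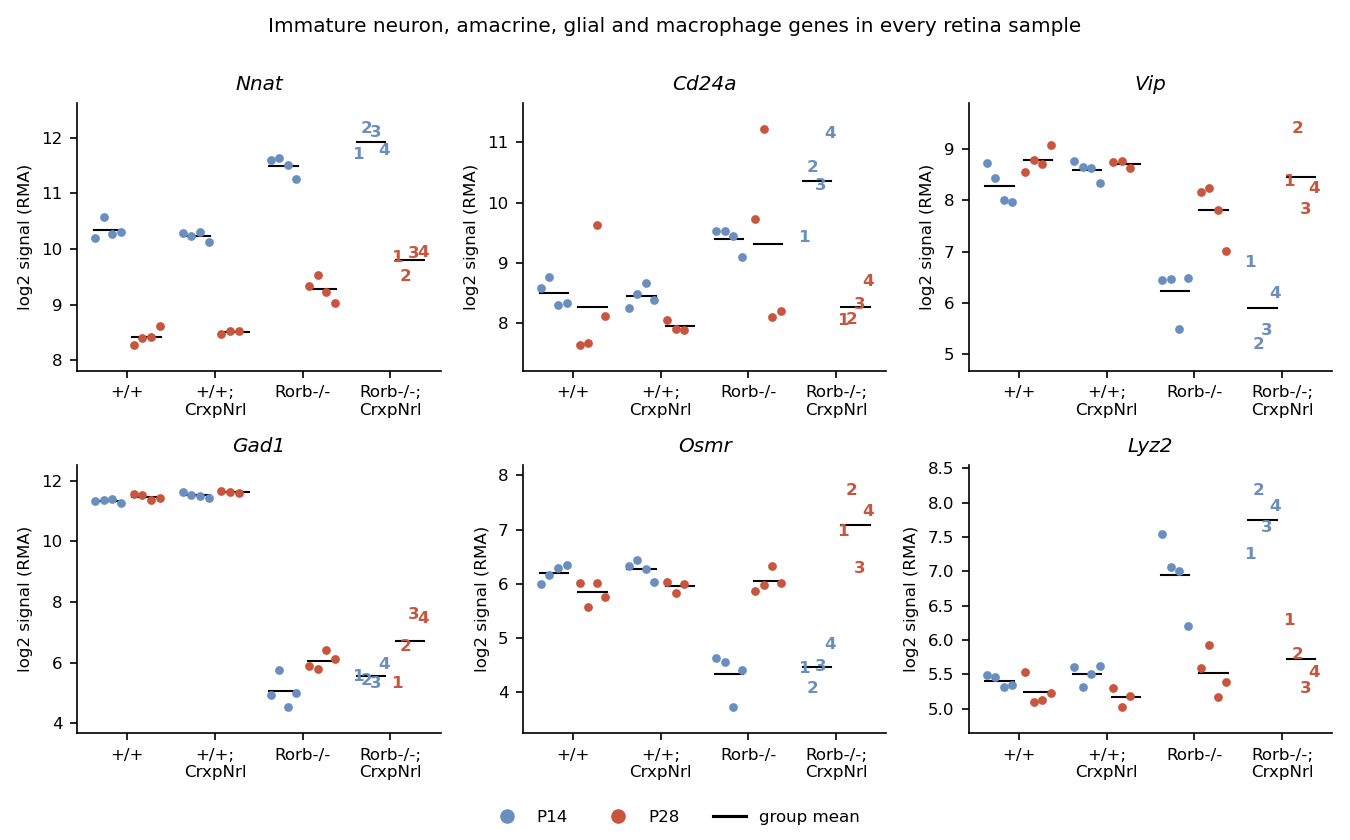
Log2 signal of 6 genes of immature neurons, amacrine cells, glia and macrophages in each retina sample, by genotype, with P14 in blue, P28 in red and group means as black lines; the rescued samples are drawn as their replicate numbers. Nnat falls with age in every genotype, Osmr rises in both genotypes without Rorb, and Gad1 lies far below +/+ retina in every sample without Rorb, at 7.6 or less in the rescued samples.

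Clock genes were among the lists with most rises: 13 of 19 rose, 1 fell and the median was 0.78, with 12 and 1 without replicates 3 and 4. In +/+ retina 6 rose (median 0.23, against 5.77% of all genes) and in Rorb-/- retina 11 (median 0.40). Nr1d1, the repressor REV-ERB alpha, read 7.16, 6.03, 7.06 and 7.02 at P14 and 8.40, 8.36, 8.90 and 8.79 at P28 and rose by 1.79 ± 0.22 (adjusted p = 4.49e-07). Dbp, an activator driven by the clock, rose by 1.77 ± 0.17, Bhlhe40, a repressor, by 1.77 ± 0.19, Per2 by 1.59 ± 0.13 and Ciart by 1.48 ± 0.21, each with no overlap between the ages. Arntl, the activator that these repressors oppose, read 9.31, 9.46, 9.40 and 9.46 at P14 and 9.16, 9.07, 8.17 and 8.50 at P28 and fell by 0.68 ± 0.12 (adjusted p = 0.000101), but the value was 0.01 without probe sets that may match several genes. The E-box CACGTG, which reads the same on both strands, was found in 5 of 16 members with a promoter entry (31.2%) against 8.09% of all genes. The time of day of collection is not in the labels, so age and hour of collection cannot be told apart for these genes.

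Genes of cholesterol synthesis rose in 14 and fell in 2 of 20, with a median of 0.44, though 6 rose and 4 fell without replicates 3 and 4. Insig1, the sterol-regulated brake on the pathway, read 7.05, 6.46, 6.62 and 6.37 at P14 and 7.69, 8.07, 8.63 and 8.63 at P28 and rose by 1.63 ± 0.18 (adjusted p = 5.49e-08). Stard4, a sterol carrier, rose by 1.07 ± 0.12, Msmo1, a sterol oxidase, by 1.02 ± 0.12 (0.13, adjusted p = 0.59, without probe sets that may match several genes) and Idi1, an isomerase of the pathway, by 0.75 ± 0.10. Their rises exceeded ageing in +/+ and +/+;CrxpNrl retina for all 4 genes. Glycolytic genes rose in 10 and fell in 3 of 23 (4 rose without probe sets that may match several genes), and mitochondrial respiration genes fell in 18 and rose in 1 of 25 by small amounts, with a median of -0.22 (8 fell without such probe sets). Immediate early genes rose in 7 and fell in 2 of 25, but 3 rose without replicate 2 at P14; Fosl2, a subunit of AP-1, rose by 1.89 ± 0.19 and Dusp1, a phosphatase of MAP kinases, by 1.20 ± 0.15. Heat shock and unfolded protein response genes rose in 7 and fell in 3 of 26, with Herpud1, which acts in clearance of misfolded proteins, up by 1.07 ± 0.10. Apoptosis genes rose in 4 and fell in 3 of 21, with Bcl2, which blocks cell death, up by 0.71 ± 0.09 and Casp1, the inflammatory caspase, up by 0.70 ± 0.15 from P14 values that were all below the arrays' lower quartile. The apoptosis median was 0.01, and since 13.6% of all genes rose and 15.3% fell, these counts do not set the list apart.

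Transcripts of the pigment epithelium, the layer that adheres to the retina at dissection, also changed. Of 22 genes of pigment epithelium and melanocytes 10 rose and 1 fell, with a median of 0.58, and 4 rose and none fell without replicates 3 and 4. The mean of the list was 6.51, 6.12, 6.24 and 6.25 at P14 and 6.71, 6.77, 6.73 and 7.37 at P28, with replicate 4 at P28 highest, and the group means were 6.28 and 6.89. In Rorb-/- retina the mean also went up, from 6.22 to 6.74, whereas it went down from 7.08 to 6.21 in +/+ and from 6.77 to 6.08 in +/+;CrxpNrl retina. Dct, dopachrome tautomerase of melanin synthesis, read 8.25, 6.81, 7.35 and 7.65 at P14 and 8.85, 8.86, 8.53 and 9.77 at P28 and rose by 1.49 ± 0.36 (adjusted p = 0.00199). Ttr, the thyroxine and retinol carrier, rose by 1.69 ± 0.51, Pmel, a melanosome matrix protein, by 1.16 ± 0.28 and Tyrp1, also of melanin synthesis, by 1.27 ± 0.36. Lrat, the retinyl ester synthase, rose by 1.17 ± 0.44 (adjusted p = 0.0462), and Rgr and Rpe65 measured 1.31 ± 0.52 and 1.08 ± 0.44 (adjusted p = 0.0589 and 0.0679). Ttr (1.25, adjusted p = 0.17) and Tyrp1 (1.18, adjusted p = 0.062) no longer passed the test without replicates 3 and 4, Ttr was also lost without replicate 4 at P28 alone (1.37, adjusted p = 0.064), and Tyrp1 without replicate 2 at P14 alone (0.94, adjusted p = 0.055). Of 11 retinoid cycle genes, a list that shares members with it, 2 rose (Lrat and Rdh5, the latter by 1.12 ± 0.33) and 1 fell (Rdh12, the retinol dehydrogenase of photoreceptors, at -1.36 ± 0.29). No member of the retinoid cycle list rose or fell without replicates 3 and 4, with Lrat at 0.51, Rdh5 at 0.81 and Rdh12 at -0.46 (adjusted p = 0.54, 0.15 and 0.074).

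Lens crystallins, from tissue in front of the retina, did not differ by the test in any of 19 genes, but their mean varied from 6.18 to 10.88 at P14 and from 6.4 to 8.0 at P28. Pigment epithelium and lens levels thus differed among the samples compared. Their part in the other results was not tested beyond a fit with both list means as covariates. In that fit Dct (0.36), Ttr (0.11), Pmel (0.46), Tyrp1 (0.60) and Rdh5 (0.068) did not pass the test in the rescued retina, and neither did Gfap (0.57) or Gpnmb (0.40). Dct, Ttr, Pmel, Tyrp1 and Rdh5 are members of the pigment epithelium list, so their own values enter the covariate. Their smaller differences were thus built into the fit and are no test of these genes. In that fit 21 of 28 interferon-stimulated genes rose, 2 rod genes and 3 outer segment genes fell, and 9 cholesterol, 6 ganglion and 5 gliosis genes rose.

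Ageing of the rescued retina was then set against ageing of each other genotype, by the difference of the 2 differences. Relative to +/+ retina 347 genes aged at least 2-fold more upward (1.91%) and 119 more downward (0.654%). Relative to +/+;CrxpNrl retina the counts were 351 (1.93%) and 86 (0.473%). Relative to Rorb-/- retina they were 24 (0.132%) and 41 (0.225%). A smaller count of calls is not by itself a measure of likeness, so the shared calls are also given. At least 2-fold rises and falls were 117 (0.643%) and 78 (0.429%) in Rorb-/- retina and 51 (0.28%) and 103 (0.566%) in +/+ retina. Of the 357 genes that rose in the rescued retina, 82 (23%) also did in Rorb-/- retina, which is 70.1% of the genes that rose there, and of the 183 that fell 50 (27.3%) also fell, 64.1% of those in Rorb-/- retina. With +/+ retina 12 rises (3.36% and 23.5%) and 32 falls (17.5% and 31.1%) were shared. At any fold, 256 of the 357 rises were also called higher in Rorb-/- retina and 59 in +/+ retina, where 6.15% and 5.77% of all genes rose. Of the 183 falls, 83 and 69 were called lower there, against 8.8% and 7.94% of all genes. The rise exceeded Rorb-/- ageing by the test in 51 genes (14.3%) and +/+ ageing in 303 (84.9%). For the falls these numbers were 28 (15.3%) and 97 (53%).

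These counts depended on single samples and on the fit. The fall relative to +/+ retina comprised 209 genes without rescued replicate 1 at P28 and 63 without replicate 3, and relative to +/+;CrxpNrl retina 178 without replicate 1, 135 without replicate 2 and 53 without replicate 3. Relative to Rorb-/- retina the upward count was 57 without rescued replicate 1 at P28, 45 without Rorb-/- replicate 3 at P14, 12 without rescued replicate 4 at P28 or Rorb-/- replicate 2 at P14, 14 without rescued replicate 2 at P14, and 15 without rescued replicate 3 at P28, Rorb-/- replicate 4 at P14 or Rorb-/- replicate 4 at P28. The downward count was 152 and 87 without rescued replicate 1 or 2 at P28, 18 and 16 without replicate 3 or 4, 25 without rescued replicate 1 or 4 at P14 or Rorb-/- replicate 4 at P28, 23 without Rorb-/- replicate 2 at P14 and 22 without Rorb-/- replicate 3 at P28. Fitted with only the arrays compared, the downward count was 75 relative to +/+ retina, and relative to Rorb-/- retina the counts were 5 and 4. Without replicates 3 and 4 at P28 the counts were 227 and 41 relative to +/+, 13 and 10 relative to Rorb-/- and 226 and 34 relative to +/+;CrxpNrl retina. With pigment epithelium and lens levels as covariates they were 1 and 0 relative to +/+, 17 and 21 relative to Rorb-/- and 48 and 5 relative to +/+;CrxpNrl retina. The pigment epithelium mean itself went up with age in rescued retina and down in +/+ and +/+;CrxpNrl retina. It therefore overlaps with these 2 comparisons, and the lower counts do not measure its part in them.

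Relative to +/+ retina the largest upward differences were in Dct (4.04 ± 0.51, adjusted p = 6.82e-06), Ttr (3.85 ± 0.72), Ifit1 (3.80 ± 0.75), Pmel (3.34 ± 0.39) and Usp18 (3.27 ± 0.87). For the pigment genes Dct and Pmel the difference came from both sides, since Dct fell by 2.55 and Pmel fell by 2.19 in +/+ retina while rising in the rescued retina. Downward differences were largest in Otop3 (-2.54 ± 0.44), Myocd (-2.48 ± 0.37), Lyz1 (-2.35 ± 0.35), Elovl2 (-2.02 ± 0.40) and Samd7 (-1.95 ± 0.52). Elovl2, which elongates polyunsaturated fatty acids, read 9.46, 9.92, 9.63 and 9.35 at P14 and 8.78, 8.49, 6.49 and 7.13 at P28, and its difference of -1.87 was -0.95 without replicates 3 and 4. Without these 2 samples the differences from +/+ ageing were -1.10 for Elovl2, -1.69 for Otop3 and -0.89 for Samd7, and those of Samd7 (adjusted p = 0.056) and Usp18 (2.86, adjusted p = 0.078) no longer passed the test. With pigment epithelium and lens levels as covariates none of these 10 differences passed the test. Those of Ttr, Dct and Pmel were 0.026, 1.32 and 1.67 (adjusted p = 0.99, 0.43 and 0.36), whereas that of Ifit1 was 3.87 (adjusted p = 0.45). Usp18 measured 3.75, Myocd -2.78, Lyz1 -2.36, Elovl2 -2.19 and Samd7 -2.67, so these and Ifit1 lost their call without a smaller difference. Otop3 measured -2.22, a smaller one. Ttr, Dct and Pmel are members of the pigment epithelium list that gave a covariate, so their smaller values were built into the fit.

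Relative to Rorb-/- retina the comparison asks how ageing of a retina without Rorb differs when Nrl is supplied. Inhbb, a subunit of activin, read 5.79, 6.19, 6.10 and 6.43 at P14 and 6.61, 7.15, 7.05 and 7.0 at P28, while it fell by 1.18 in Rorb-/- retina, a difference of 2.01 ± 0.29 (adjusted p = 0.00054). Sst, Npy, Rasgrf1 and Col25a1 followed at 1.38 ± 0.31, 1.34 ± 0.25, 1.32 ± 0.24 and 1.30 ± 0.22. The differences of Sst (1.49, adjusted p = 0.081) and Rasgrf1 (1.12, adjusted p = 0.065) no longer passed the test without replicates 3 and 4 at P28, and that of Sst was also lost without any of 3 single Rorb-/- samples. In a fit of the 2 genotypes alone Sst, Npy and Rasgrf1 lost their call (adjusted p = 0.058, 0.089 and 0.1). Downward, Tph1, the tryptophan hydroxylase of serotonin and melatonin synthesis, read 6.07, 6.03, 6.07 and 6.11 at P14 and 4.65, 4.09, 4.12 and 4.06 at P28, and rose by 1.16 in Rorb-/- retina. The P14 samples of Tph1 were nearly equal and the groups did not overlap, and its difference was -3.00 ± 0.32 (adjusted p = 7.9e-06). Otop3 (-2.52 ± 0.44), Crxos (-2.36 ± 0.37), Myocd (-2.33 ± 0.37) and Esrrb (-2.23 ± 0.57, adjusted p = 0.043) followed, and the value of Esrrb in the rescued retina itself did not pass the test. The Esrrb difference was -1.16 (adjusted p = 0.48) without replicates 3 and 4 at P28 and no longer passed the test in 10 of the 16 fits that left out 1 sample of the 2 genotypes. Without those 2 samples the Otop3 and Crxos differences were -1.67 and -1.51 and still passed it. Fitted with only the 2 genotypes compared, none of the differences of Otop3, Crxos, Myocd and Esrrb passed the test (adjusted p = 0.072, 0.054, 0.058 and 0.23).

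Relative to +/+;CrxpNrl retina, in which Nrl comes from the transgene as well as from its own gene, Ifit1 (3.97 ± 0.78), Rtp4 (3.5 ± 0.73), Dct (3.45 ± 0.53) and Usp18 (3.41 ± 0.90) differed upward, and Myocd (-2.89 ± 0.38), Pex5l (-2.38 ± 0.69), Lyz1 (-2.25 ± 0.36), Samd7 (-2.17 ± 0.54) and Insm1 (-2.13 ± 0.45) downward. Pdxdc1 had a difference of 3.56 ± 1.18 (adjusted p = 0.045), but its rescued samples were uneven at P14, with 5.82, 5.01, 8.15 and 9.15, and the mean of its 4 probe sets gave a difference of -0.05. With P28 replicates 3 and 4 left out the differences of Usp18 (3.0, adjusted p = 0.087) and Pex5l (-1.64, adjusted p = 0.19) no longer passed the test, nor did that of Pdxdc1 (3.39, adjusted p = 0.15), and Samd7 (-1.10) and Insm1 (-1.31) still did. With the pigment epithelium and lens covariates the difference of Dct was 1.07 (adjusted p = 0.38), against 4.01 for Ifit1 (adjusted p = 0.24). Dct enters the pigment covariate itself, so its smaller value was built in. In that fit Samd7, Insm1 and Lyz1 measured -2.77, -2.33 and -2.27 and did not pass the test (adjusted p = 0.24, 0.23 and 0.13). Nor did Rtp4, Usp18, Pex5l and Pdxdc1 (adjusted p = 0.25, 0.36, 0.17 and 0.42), at 3.645, 3.81, -3.82 and 4.53. None of these 7 differences was smaller than without the covariates. Fitted with only the genotypes compared, Samd7, Pex5l and Pdxdc1 lost their call (adjusted p = 0.057, 0.055 and 0.061). The 3 comparisons use the same rescued samples, and agreement between their lists is therefore not independent.

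For genes with several probe sets the mean over them often gave a smaller difference in the same direction that still passed the test. In place of the values above, Rtp4 then measured 1.90, Wdr66 -1.08, Tac1 0.84, Calb1 0.82, Gng13 0.70, Fosl2 1.01, Dcn 1.05, Nid1 -0.80, Rims3 0.71 and Slc24a2 0.54. The difference of Inhbb from Rorb-/- ageing was 1.01 in place of 2.01, and that of Col25a1 was 0.64 in place of 1.30. Fitted on the 8 rescued arrays alone, 24 named genes no longer passed the test. Among them were Mef2c, Gad1, Bst2, Glul, Csf1r and C1qb (adjusted p = 0.13, 0.089, 0.073, 0.11, 0.098 and 0.094). The others were Cdhr1, Rp1l1, Rp1, Prom1, Tulp1, Rcvrn, Gngt1, Cngb1, Pde6g, Susd3, Rdh12, Lrat, Otx2, Neurod1, Thrb, Casz1, Cabp4 and Pex5l. Their adjusted p lay between 0.051 (Rp1l1) and 0.22 (Cabp4).

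**Figure D5:**
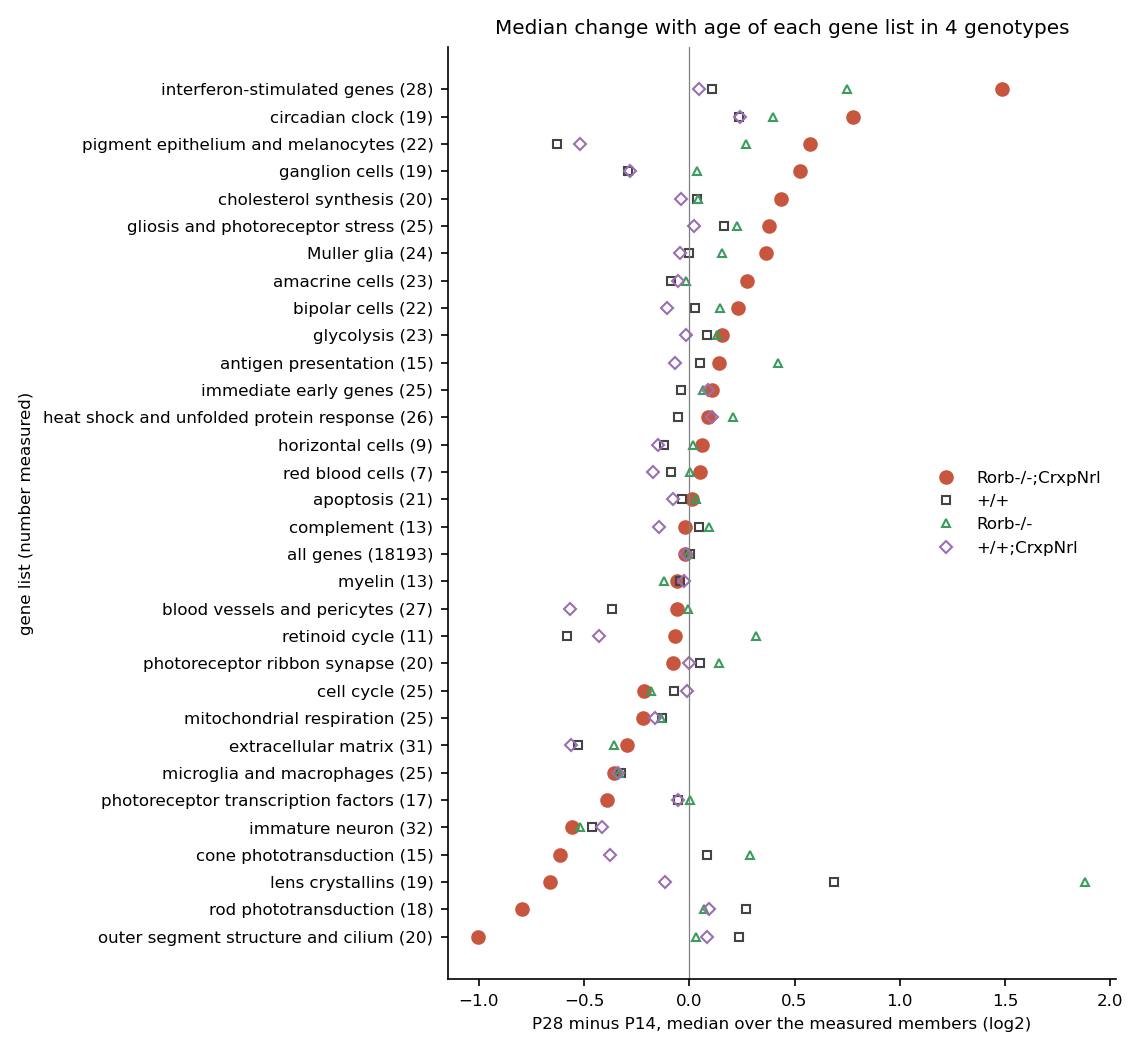
Median P28 minus P14 difference (log2) of the measured members of each gene list, 1 symbol per genotype, with the median of all genes for reference. Interferon-stimulated genes lie at 1.49 in Rorb-/-;CrxpNrl and 0.75 in Rorb-/- retina and near 0 in both genotypes with Rorb, outer segment genes lie at -1.0 in Rorb-/-;CrxpNrl retina alone, and microglia genes lie between -0.36 and -0.32 in all 4.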

How the data were processed

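Retinal RNA of 31 mice, both retinas of 1 mouse per sample and 5 µg per array, was hybridised to Affymetrix mouse arrays. The deposited values are log2 signals per probe set, made by the authors with RMA, as the submitters' processing notes record without a version. These went into the fit unchanged. Of 45101 probe sets, 34958 carried 1 gene symbol in the platform annotation, 932 several and 9211 none. Without control probe sets 34945 were used, the brightest standing for its gene, which gave 18193 genes. A gene that shares its only probe set is not analysed here.

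Group means of all 31 arrays were estimated in a joint limma fit (version 3.58.1, R 4.3.3), with a prior variance that follows the level. P-values were adjusted over all genes (Benjamini-Hochberg) for each comparison. Errors are standard errors of that fit. Genes were called at an adjusted p under 0.05, and counts over all genes also required a 2-fold difference. On simulated data 99 of 100 genes changed by 1 log2 unit and 100 of 100 changed by 2 were recovered, with 13 false calls among 18193 genes. The simulated noise had the same spread in all groups and was independent between genes. In the data the rod list mean had an SD of 1.08 in rescued and 0.0497 in +/+ retina at P28. The simulation therefore gives no rate of false calls for the spread of the rescued P28 samples.

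The genes named are Rorb and Nrl, the 15 largest rises and falls whose samples do not overlap and whose higher mean is at least 6, the 5 largest differences of ageing each way against each genotype, up to 6 members of each of 32 lists by size of difference, and photoreceptor transcription factors. The rule leaves out sex-linked genes and names of expressed sequences, and allows fewer names. Gnat1, Gnat2, Pde6c, Opn1mw, Glul, Rlbp1, Gfap, Aif1, Cx3cr1, Csf1r, Irf7, Irf9, Bst2, Oasl2, Pecam1 and Arntl fall outside it and were chosen after their values were seen. The samples, lists and rules were chosen with earlier results of these data known. Sex-linked genes were used for a covariate alone, because no label states the sex of a mouse. The alternatives were centring, quantile normalization, the choice of probe set, a filter on dim genes, the prior, array weights, covariates, the samples in the fit, and leaving out samples.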

Additional observations from a re-analysis of the deposited data

Results flagged for a closer look

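In 14 of 318 groups of 4 rescued samples (4.4%), the sample at 1 end lay apart from the other 3, where chance flags about 5%, or 1 in 20. At P14 a low value stood apart for Stc1 in replicate 3 (5.75, others 6.07 to 6.12), Kcne2 in replicate 4 (8.41, others 8.79 to 8.85), Rp1 in replicate 3 (11.24, others 11.51 to 11.55), Nr1d1 in replicate 2 (6.03, others 7.02 to 7.16), Serpina3n in replicate 4 (4.88, others 6.30 to 6.51), Dcn in replicate 2 (5.57, others 6.59 to 6.64) and Ciart in replicate 2 (5.22, others 5.67 to 5.72). A high value stood apart at P14 for Cdhr1 in replicate 1 (12.99, others 12.82 to 12.84) and Irf9 in replicate 2 (7.42, others 6.30 to 6.42). At P28 the sample apart was high for Tph1 in replicate 1 (4.65, others 4.06 to 4.12), Car14 in replicate 3 (9.75, others 9.03 to 9.13), H2-D1 in replicate 3 (10.19, others 5.6 to 6.0) and Rdh5 in replicate 4 (8.03, others 6.90 to 7.07), and low for Lrtm1 in replicate 2 (9.37, others 10.18 to 10.34).

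Ageing differed between genotypes by the limma test of the difference itself, at an adjusted p under 0.05, for the 5 leading genes each way. Rescued minus +/+ ageing was 4.04 for Dct, 3.85 for Ttr, 3.80 for Ifit1, 3.34 for Pmel and 3.27 for Usp18, and -2.54 for Otop3, -2.48 for Myocd, -2.35 for Lyz1, -2.02 for Elovl2 and -1.95 for Samd7. Rescued minus Rorb-/- ageing was 2.01 for Inhbb, 1.38 for Sst, 1.34 for Npy, 1.32 for Rasgrf1 and 1.30 for Col25a1, and -3.00 for Tph1, -2.52 for Otop3, -2.36 for Crxos, -2.33 for Myocd and -2.23 for Esrrb. Rescued minus +/+;CrxpNrl ageing was 3.97 for Ifit1, 3.56 for Pdxdc1, 3.5 for Rtp4, 3.45 for Dct and 3.41 for Usp18, and -2.89 for Myocd, -2.38 for Pex5l, -2.25 for Lyz1, -2.17 for Samd7 and -2.13 for Insm1.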

How the results depend on the processing

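Of 159 genes named, 140 passed the test for P28 against P14, and 92 of these kept their call under every alternative in which they were measured. A gene absent from a fit, as after the filter on dim genes, was not checked there and counted as kept. Calls were lost most often with pigment epithelium and lens covariates (35 genes), without P28 replicates 3 and 4 (28, an alternative chosen after seeing the data) and in a fit of the compared groups alone (24). The last 2 settings used fewer samples, and the cause of the lost calls was not tested. Members of the pigment epithelium list, such as Dct, Ttr and Pmel, enter its covariate themselves.

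The counts of genes at least 2-fold higher and lower were 357 and 183 and became 2476 and 2781 with no fold requirement, and the lower count was 110 without P28 replicates 3 and 4. Leaving out single samples gave 308 to 452 higher and 129 to 248 lower. For the difference from +/+ ageing (347 and 119) the counts were 1610 and 1213 with no fold requirement, 1 and 0 with the covariates and 227 and 41 without replicates 3 and 4, the lower count was 217 with array weights and 75 with only the compared groups, and single samples gave 290 to 472 and 63 to 209. For the difference from Rorb-/- ageing (24 and 41) they were 148 and 122 with no fold requirement, 64 and 167 with array weights, 13 and 10 without replicates 3 and 4 and 5 and 4 with only the compared groups, the higher count was 14 without the dimmest 40% of genes, the lower count was 21 with the covariates and 27 with the mean of probe sets, and single samples gave 12 to 57 and 16 to 152. For the difference from +/+;CrxpNrl ageing (351 and 86) they were 1561 and 719 with no fold requirement, 48 and 5 with the covariates and 226 and 34 without replicates 3 and 4, the lower count was 191 with array weights, and single samples gave 291 to 473 and 53 to 178.

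With the replicate number as a block within each genotype, the rescued comparison gave 359 and 181 genes, and the lower count against Rorb-/- ageing was 70. Deviations of same-numbered samples of the 2 ages correlated at -0.033 to 0.273 in rescued, 0.080 to 0.288 in Rorb-/-, -0.053 to 0.135 in +/+ and 0.228 to 0.302 in +/+;CrxpNrl retina. Since not every pair exceeded 0.1 and the labels do not tie the numbers to a litter or batch, no pairing was assumed; whether some samples share one was not tested further.

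Signs turned without replicates 3 and 4 for Nrl (0.046), Esrrb (0.68) and Mef2d (0.024). They turned without probe sets that may match several genes for Lyz1 (0.060, with differences of 0.22 from +/+ and 0.14 from +/+;CrxpNrl ageing), Arntl (0.014) and Hmgb2 (0.12), and with the mean of probe sets for Pdxdc1 (-0.032, difference -0.049), H2-D1 (0.31) and Onecut1 (0.051). With the covariates they turned for Rgr (-0.45), Lrat (-0.27) and Rpe65 (-0.43), and with array weights for Gnat1 (-0.20) and Rora (-0.026). Rgr, Lrat and Rpe65 are members of the list that gave the pigment epithelium covariate, so their turn is no test of these genes. Leaving out single samples moved Gnat1 between -0.20 and 0.48, Rxrg between -0.15 and 0.040, Rora between -0.061 and 0.078 and Onecut1 between -0.30 and 0.081, none of which passed the test. Each of these causes was not tested beyond the change of setting itself.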
